A study of Mus musculus with 15 samples.

Results

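The 9 genes C1qa, C1qb, C1qc, Csf1r, Tyrobp, Fcer1g, Ptprc, Cd68 and Lyz2, which mark macrophages and other leukocytes, were taken by symbol from a count table of 24421 genes in cultured mouse kidney cells. All 9 were listed, and all 9 had enough counts to be tested. The cultures were primary proximal tubule cells, the kidney epithelium that reabsorbs most of the filtered salt and nutrients, from C57BL/6 mice, grown and passaged 1 time before RNA-seq. The groups were female Diet1-/- (female KO, 4 libraries), female Diet1+/+ (female WT, 4), male Diet1-/- (male KO, 3) and male Diet1+/+ (male WT, 4). Diet1, a gene active in intestine and kidney, influences bile acid metabolism. It was not analysed here, and the KO labels could not be held against its level. The labels give no age and do not say how the allele was made. Each group is a single pool of the cells of 3 to 4 mice, from which all of its libraries were made as technical replicates. The p-values therefore cover the spread between libraries of a pool, not between mice or cultures.

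Macrophages live in the kidney between the tubules and depend on signals through CSF1R, the receptor for the growth factors CSF1 and IL-34. C1QA, C1QB and C1QC are the chains of C1q, the protein that starts the classical complement pathway, and macrophages are a main source of it. TYROBP (DAP12) and FCER1G are small adaptors that carry an activation motif (ITAM) for surface receptors of myeloid cells, and PTPRC (CD45) is a phosphatase on the surface of nucleated blood cells. LYZ2 is the lysozyme of mouse myeloid cells, and CD68 is a glycoprotein of late endosomes and lysosomes that is abundant in macrophages.

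The labelled cell type was held against its markers first. The kidney epithelial genes Cdh16 and Pax8 averaged 225 to 292 and 116 to 129 CPM over the groups, and the list of 6 epithelial genes summed to 5298 to 7208 CPM over the libraries (CPM, reads scaled to a common library size by the trimmed mean of M values, TMM). Of 12 proximal tubule genes 8 were tested, and the transporter genes Slc22a6, Slc34a1, Slc5a12 and Slc5a2 were too low to test. Library totals ran from 17648416 to 30896637 counts, at which 3 counts correspond to between 0.0971 and 0.171 CPM. Within groups the libraries' correlations were at least 0.997, and between groups at most 0.995, so no library stood with another group.

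The C1q genes lie side by side on chromosome 4 on the minus strand, C1qb at chr4:136880129-136886187, C1qc at chr4:136889804-136893065 and C1qa at chr4:136895917-136898803 (GRCm38, GENCODE M21). Gaps of 3616 and 2851 bases separate them. The other members lie elsewhere, Ptprc at chr1:138062861-138175708 (minus strand), Fcer1g at chr1:171229572-171234365 (minus), Tyrobp at chr7:30413760-30417585 (plus), Lyz2 at chr10:117277331-117282321 (minus) and Cd68 at chr11:69664213-69666153 (minus). RefSeq promoter windows of GRCm38.p6, each from 250 bases before to 50 bases after a start, were used for 6 members, 7 windows in all. No window of C1qa, Tyrobp or Csf1r was used. They were read for GAGGAA, a core of the sites bound by the myeloid factor PU.1 (Spi1), on both strands (TTCCTC on the other), matches that could not overlap each other. C1qb and C1qc are shown as genes of 1 cluster that followed the same order of groups, and Cd68 as a gene that did not. The capitals mark the matches. C1qb is at chr4:136886151-136886450, C1qc at chr4:136892865-136893164 and Cd68 at chr11:69666121-69666420, all printed 5′ to 3′ on the minus strand.
C1qb: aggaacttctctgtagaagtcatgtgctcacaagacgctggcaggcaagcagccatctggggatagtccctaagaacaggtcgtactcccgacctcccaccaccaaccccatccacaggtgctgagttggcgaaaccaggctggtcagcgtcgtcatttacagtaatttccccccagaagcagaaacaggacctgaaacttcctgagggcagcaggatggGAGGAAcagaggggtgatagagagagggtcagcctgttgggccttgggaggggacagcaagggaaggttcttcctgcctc
C1qc: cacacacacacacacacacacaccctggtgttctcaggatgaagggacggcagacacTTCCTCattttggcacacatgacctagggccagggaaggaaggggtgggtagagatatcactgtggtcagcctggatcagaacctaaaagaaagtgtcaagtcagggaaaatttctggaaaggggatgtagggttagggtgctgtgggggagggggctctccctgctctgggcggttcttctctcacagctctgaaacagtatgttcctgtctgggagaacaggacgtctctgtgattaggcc
Cd68: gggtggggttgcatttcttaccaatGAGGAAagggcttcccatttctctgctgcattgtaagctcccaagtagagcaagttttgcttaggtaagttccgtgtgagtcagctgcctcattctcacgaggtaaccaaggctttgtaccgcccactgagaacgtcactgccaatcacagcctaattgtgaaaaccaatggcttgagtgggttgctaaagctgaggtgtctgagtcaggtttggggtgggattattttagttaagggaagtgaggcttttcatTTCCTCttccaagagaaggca
The match lies 30 bases before the start in C1qb and 193 before it in C1qc, and Cd68 has matches 225 bases before and 29 after it. Of the 7 windows 4 held a match, and so did 28.3% of 32851 promoters of the same length. Lyz2, Fcer1g and the second Ptprc window held none of these letters.

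Levels of 7 members followed the same order of group means, highest in female KO, then female WT, then male KO, and lowest in male WT. These were C1qa, C1qb, C1qc, Tyrobp, Fcer1g, Ptprc and Lyz2. Csf1r and Cd68 followed other orders, and no neighbouring groups in their orders were separated. Summed over the 9 genes, libraries held 48.4 to 62.2 CPM in female KO, 36.7 to 44.4 in female WT, 34.1 to 36.6 in male KO and 22.5 to 27.7 in male WT. In bulk samples, fewer cells of a type and less RNA per cell cannot be told apart.

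**Figure D1:**
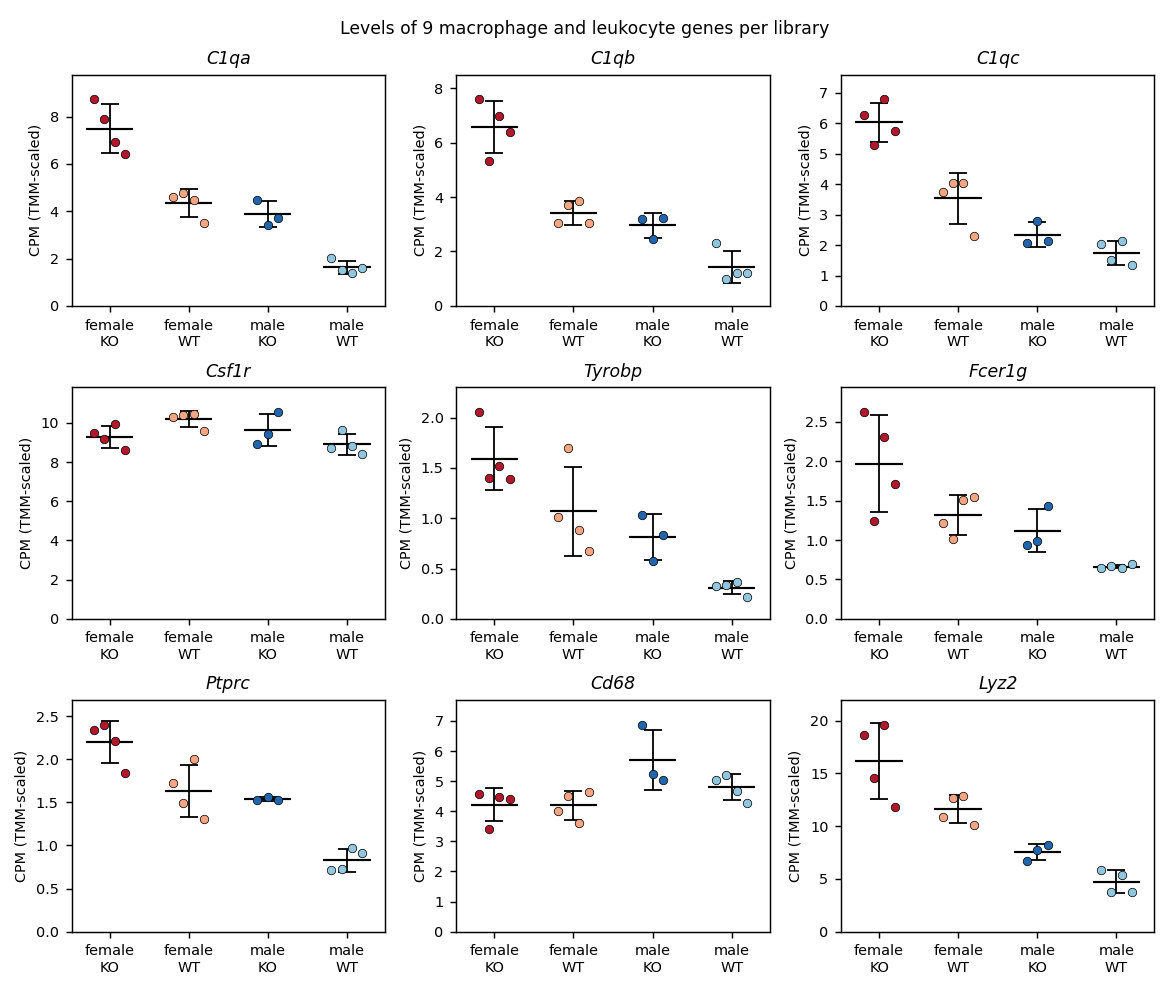
Level of each of the 9 genes in every library (y axis, TMM-scaled CPM from 0) by group (x axis); points are libraries, long lines are means and bars are 1 SD (n = 4, male KO n = 3). For 7 genes the female KO mean is the highest and the male WT mean the lowest, while KO and WT of each sex overlap in the panels of Csf1r and Cd68.

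The C1q genes were highest in female KO and lowest in male WT. C1qa was at 8.73, 7.89, 6.93 and 6.43 CPM in the female KO libraries and at 4.61, 4.79, 4.49 and 3.49 in female WT. It was at 4.49, 3.43 and 3.70 CPM in male KO and at 2.04, 1.50, 1.41 and 1.60 in male WT. Every KO library lay above every WT library of its sex. C1qa was higher in female KO than in female WT by 0.79 ± 0.12 on the log2 scale (SE; edgeR adjusted p = 2.92e-06) and higher in male KO than in male WT by 1.21 ± 0.17 (adjusted p = 1.93e-06).

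C1qb was at 7.59, 5.34, 6.97 and 6.39 CPM in female KO and at 3.04, 3.72, 3.86 and 3.05 in female WT. The male KO libraries held 3.21, 2.44 and 3.24 CPM, against 2.30, 0.999, 1.21 and 1.23 in male WT. As with C1qa, KO and WT libraries did not overlap in either sex, though male WT 1 stood close to the lowest male KO library. C1qb rose by 0.95 ± 0.15 in female KO (adjusted p = 8.75e-06) and by 0.97 ± 0.22 in male KO (adjusted p = 0.00130).

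C1qc was at 6.28, 5.29, 6.79 and 5.76 CPM in female KO, against 3.75, 4.04, 4.05 and 2.30 in female WT. It was at 2.07, 2.81 and 2.13 CPM in male KO, against 2.04, 1.50, 2.14 and 1.33 in male WT. The female groups were apart, and the male groups overlapped. C1qc rose by 0.79 ± 0.15 in female KO (adjusted p = 5.08e-05), while the male difference was 0.36 ± 0.21 (adjusted p = 0.248), with a 95% interval of -0.07 to 0.79. Of the reads of the C1q genes, C1qc took 30.2% in female KO, 31.0% in female WT, 25.3% in male KO and 36.1% in male WT. The exact binomial 95% intervals, which cover counting error only, were 27.9% to 32.5%, 28.1% to 34.1%, 21.8% to 29.1% and 31.8% to 40.7% in the same order.

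The ITAM adaptors were among the lowest members, with 4 to 36 reads a library for Tyrobp and 12 to 50 for Fcer1g. Tyrobp was at 2.05, 1.40, 1.52 and 1.39 CPM in female KO, against 1.01, 1.70, 0.879 and 0.674 in female WT. It was at 1.04, 0.572 and 0.832 CPM in male KO, against 0.324, 0.333, 0.363 and 0.213 in male WT. The male groups were apart and the female groups overlapped through female WT 2. Tyrobp rose by 1.37 ± 0.38 in male KO (adjusted p = 0.00804), which was lost without male KO 1 (1.17, adjusted p = 0.0672). The female difference was 0.60 ± 0.25 (adjusted p = 0.0519), and without female WT 2 it was 0.90 (adjusted p = 0.00557).

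Fcer1g was at 2.62, 1.25, 2.31 and 1.71 CPM in female KO, against 1.22, 1.01, 1.51 and 1.55 in female WT. The male KO libraries held 0.938, 0.988 and 1.43 CPM, against 0.647, 0.666, 0.646 and 0.694 in male WT. Here too the male groups were apart and the female groups overlapped. The female difference of 0.55 ± 0.22 passed the threshold (adjusted p = 0.0438), and the male difference of 0.77 ± 0.29 did not (adjusted p = 0.0624). The female call held in 8 of 16 alternatives and was lost without female KO 1, female KO 3, female WT 1 or female WT 2 (adjusted p = 0.182, 0.144, 0.0951 and 0.131).

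Ptprc was at 2.34, 2.40, 2.22 and 1.84 CPM in female KO, against 1.72, 1.49, 2.0 and 1.31 in female WT. It was at 1.53, 1.56 and 1.53 CPM in male KO, against 0.712, 0.722, 0.969 and 0.907 in male WT. The male groups were clearly apart, and in females 1 WT library reached above the lowest KO library. The span of Ptprc holds the same-strand record A130071D04Rik (5864 bases), so its reads may be split. Ptprc rose by 0.90 ± 0.23 in male KO (adjusted p = 0.00436), and the female difference was 0.43 ± 0.18 (adjusted p = 0.0519). The female difference passed without female WT 3 (0.55, adjusted p = 0.0251) or female KO 4 (0.51, adjusted p = 0.0342).

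Lyz2 was the most abundant member in female KO per kilobase of exon as well as in CPM, at 12.3 ± 2.73 CPM per kb (SD, n = 4) beside 7.21 ± 0.982 for C1qa and 0.120 ± 0.0135 for Ptprc. These lengths pool the exons of all annotated transcripts, 1.32 kb for Lyz2, 1.04 for C1qa and 18.3 for Ptprc. A gene whose transcripts are shorter than its pooled exons is thus set too low. Lyz2 levels by library follow. Lyz2 was at 18.6, 14.6, 19.6 and 11.8 CPM in female KO, against 10.9, 12.7, 12.9 and 10.1 in female WT. Male KO libraries held 6.71, 7.69 and 8.18 CPM, against 5.89, 3.78, 5.41 and 3.79 in male WT. Every female library was above every male library. Lyz2 rose by 0.47 ± 0.16 in female KO (adjusted p = 0.0293), with overlapping libraries, and was 0.63 ± 0.22 higher in male KO without overlap (adjusted p = 0.0576). The female call was lost without female KO 1, female KO 3, female WT 1 or female WT 4 (adjusted p = 0.0808, 0.0797, 0.0711 and 0.0868), and the male difference passed without male WT 1 (0.77, adjusted p = 0.0357). Its near-identical paralog Lyz1, whose reads the counting could split from it, had at most 1 read in a library.

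Cd68 was at 4.56, 3.39, 4.48 and 4.41 CPM in female KO, against 4.00, 4.52, 3.61 and 4.64 in female WT. It was at 6.86, 5.25 and 5.04 CPM in male KO, against 5.05, 5.22, 4.68 and 4.27 in male WT. KO and WT overlapped in both sexes. The KO difference was 0.00 ± 0.13 in females (adjusted p = 0.995; 95% interval -0.26 to 0.27) and 0.25 ± 0.13 in males (adjusted p = 0.190). The gene lies 782 bases downstream of Eif4a1, a translation initiation factor gene on the same strand that averaged 604 CPM in female KO, 533 in female WT, 608 in male KO and 557 in male WT and was higher in KO in both sexes, by 0.18 ± 0.024 in females and 0.13 ± 0.026 in males. Whether reads running past Eif4a1 enter the Cd68 count was not tested.

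Csf1r lies at chr18:61100598-61132149 on the plus strand. It was at 9.47, 9.18, 9.93 and 8.59 CPM in female KO, against 10.3, 10.4, 10.4 and 9.60 in female WT. It was at 8.94, 9.41 and 10.5 CPM in male KO, against 8.70, 9.66, 8.80 and 8.43 in male WT. All libraries thus lay between 8.43 and 10.5 CPM, and KO and WT overlapped in both sexes. The KO difference was -0.13 ± 0.081 in females (adjusted p = 0.210; 95% interval -0.30 to 0.03) and 0.12 ± 0.088 in males (adjusted p = 0.382). The end of Csf1r overlaps the opposite-strand gene Hmgxb3 by 873 bases, and Hmgxb3 was at 82.3 ± 3.05 CPM in female KO, 81.8 ± 3.94 in female WT, 80.1 ± 3.57 in male KO and 78.3 ± 1.84 in male WT. Libraries kept strand but the strand setting of the counting is not given in the sources used here, so reads of the shared stretch cannot be told apart.

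Counted over the members, female KO against female WT gave 5 higher and 0 lower of 9 (C1qa, C1qb, C1qc, Fcer1g and Lyz2), and 3 without female KO 1, female KO 3 or female WT 1. Of all 13912 genes tested, 20.7% were called higher and 18.6% lower in that comparison, 39.3% in all. Male KO against male WT gave 4 higher and 0 lower (C1qa, C1qb, Tyrobp and Ptprc), where 10.1% of all genes were called higher and 10.1% lower, 20.2% in all. C1qa and C1qb were called in both sexes. All KO libraries lay above all WT libraries for 3 members in females, where this held for 19.4% of all genes and the reverse for 16.7%, and for 6 members in males, where the shares were 13.9% and 13.7%. The median difference over the 9 was 0.55 in females and 0.77 in males, beside a median of 0.00 over all genes tested in each. A test of the difference between the sexes' KO effects called 0 of 9 members by edgeR, DESeq2 and limma-voom alike, where 9.76% of all genes were called higher and 5.89% lower, 15.6% in all. At an unadjusted p below 0.05 it held 1, Csf1r, whose KO effect was lower in females than in males by 0.25 ± 0.12 (log2 difference -0.25, adjusted p = 0.171). The intervals were wide, -0.86 to 0.01 for C1qa, -0.09 to 0.95 for C1qc and -1.69 to 0.15 for Tyrobp, so the data do not show that the sexes respond alike.

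**Figure D2:**
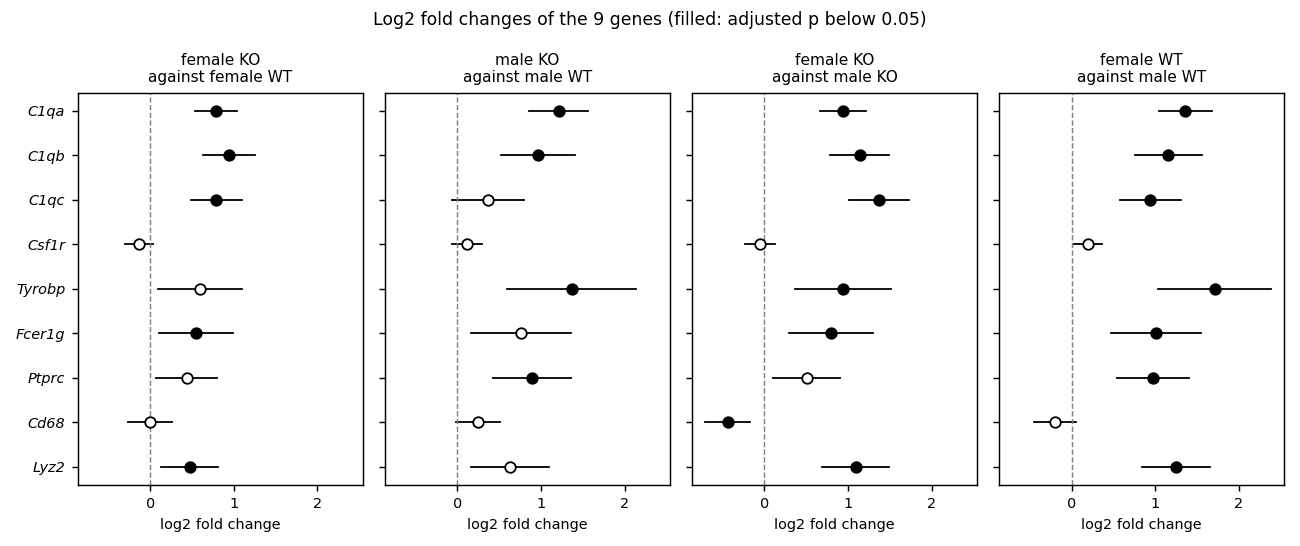
Log2 fold changes of the 9 genes (x axis) in 4 comparisons, with 95% intervals as bars; filled points passed an adjusted p of 0.05 in edgeR. C1qa and C1qb are filled in every panel, and Csf1r in none.

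The sexes were also compared within each genotype. In KO cells 6 members were higher in females and 1 was lower, where 4.94% of all genes were called higher and 4.26% lower, 9.20% in all. The groups did not overlap for 6 higher and 1 lower member, against 9.63% and 9.60% of all genes. These were not the same 6 as those called higher. Fcer1g was called but overlapped, and Ptprc did not overlap but was not called (0.51 ± 0.20, adjusted p = 0.114). C1qc was higher in female KO than in male KO by 1.37 ± 0.17 (adjusted p = 7.28e-07), C1qb by 1.14 ± 0.17 (adjusted p = 1.89e-05), Lyz2 by 1.09 ± 0.19 (adjusted p = 0.00146) and C1qa by 0.94 ± 0.14 (adjusted p = 6.56e-06). The calls of Tyrobp (0.94 ± 0.28, adjusted p = 0.0277) and Fcer1g (0.79 ± 0.25, adjusted p = 0.0350) held less widely: the first was lost without female KO 1, male KO 2 or male KO 3 and the second without female KO 1, female KO 3, male KO 1 or male KO 2. Cd68 went the other way, lower in female KO by 0.44 ± 0.13 (log2 difference -0.44, adjusted p = 0.0297), a call lost without male KO 1 (adjusted p = 0.312) or female KO 2 (adjusted p = 0.132).

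In WT cells 7 members were higher in females and 0 lower, where 12.6% of all genes were called higher and 16.0% lower, 28.6% in all. The same 7 did not overlap between the sexes, against 12.1% of all genes higher and 15.5% lower without overlap. Tyrobp was higher in female WT than in male WT by 1.71 ± 0.33 (adjusted p = 0.000140), C1qa by 1.36 ± 0.16 (adjusted p = 1.92e-08), Lyz2 by 1.25 ± 0.19 (adjusted p = 0.000148) and C1qb by 1.16 ± 0.19 (adjusted p = 2.53e-05). Fcer1g, Ptprc and C1qc were higher by 1.01 ± 0.26, 0.97 ± 0.21 and 0.94 ± 0.18. Csf1r (0.20 ± 0.080, adjusted p = 0.0658) and Cd68 (-0.20 ± 0.12, adjusted p = 0.259) did not pass, though Csf1r passed without male WT 2 (0.24, adjusted p = 0.0367). Of the members, 6 were called higher in females in both genotypes. The medians over the 9 were 0.94 in KO and 1.01 in WT, again beside 0.00 over all genes.

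The make-up of the members' reads is given as a description, since Csf1r and Cd68 were set against the rest after their order of groups had been seen. Csf1r and Cd68 together took 24.4% of the members' summed reads in female KO (1099 of 4497; exact binomial 95% interval 23.2% to 25.7%), 35.0% in female WT (1210 of 3456; 33.4% to 36.6%), 43.2% in male KO (939 of 2174; 41.1% to 45.3%) and 53.8% in male WT (1265 of 2351; 51.8% to 55.8%). The other 7 summed to 42.0 ± 6.22 CPM in female KO, 27.0 ± 3.36 in female WT, 20.2 ± 0.790 in male KO and 11.3 ± 2.11 in male WT. Within the 7 the log2 differences between KO and WT ran from 0.43 to 0.95 in females and 0.36 to 1.37 in males.

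**Figure D3:**
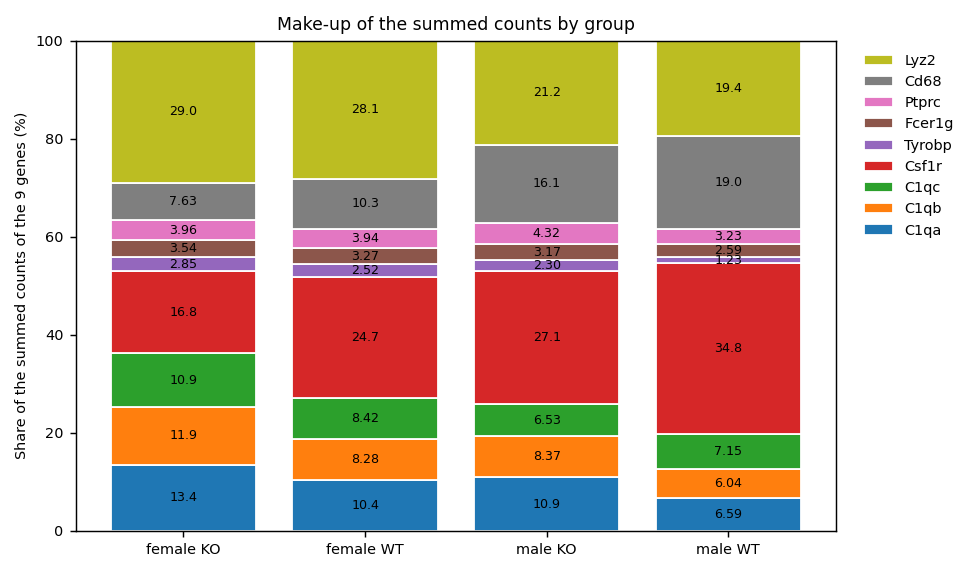
Share of each gene in the summed reads of the 9 genes (y axis, percent) for each group (x axis). The joint share of Csf1r and Cd68 is 24.4% in female KO and 53.8% in male WT.

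Other macrophage genes were counted next. Of 27 macrophage and monocyte genes 20 were tested. Against female WT, female KO had 10 of them higher and 0 lower, beside 20.7% and 18.6% of all genes. In male KO against male WT 6 were higher and 2 lower, beside 10.1% and 10.1% of all genes, so the 2 lower lie at the share of all genes. Between females and males, 9 were higher and 1 lower in KO, beside 4.94% and 4.26%, and 9 higher and 2 lower in WT, beside 12.6% and 16.0%. Without male WT 3 the male KO count was 4 higher and 1 lower. The medians of the list were 0.56 for KO in females, 0.66 for KO in males, 0.90 for sex in KO and 1.01 for sex in WT. Summed over the list, libraries ran from 58.3 to 68.4 CPM in female KO, 43.9 to 53.4 in female WT, 48.6 to 53.4 in male KO and 48.0 to 49.5 in male WT.

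Cx3cr1, the fractalkine receptor of resident macrophages, was at 1.27 ± 0.294 CPM in female KO, 0.306 ± 0.146 in female WT, 0.693 ± 0.286 in male KO and 0.275 ± 0.142 in male WT. It rose by 2.07 ± 0.35 in female KO (adjusted p = 1.34e-05) and by 1.38 ± 0.43 in male KO (adjusted p = 0.0198). Both differences rest on few reads. Cx3cr1 had 20 to 35 reads a library in female KO, 4 to 10 in female WT, 9 to 20 in male KO and 2 to 8 in male WT. Mrc1, the mannose receptor, rose by 1.18 ± 0.29 and 1.39 ± 0.36 (adjusted p = 0.00126 and 0.00487). Itgam, Mpeg1 and Ctss, which were named here after their values were seen except for Itgam in the WT comparison, were called higher in all 4 comparisons without overlap. Itgam, the integrin subunit CD11b, was at 4.57 ± 0.424 CPM in female KO, 2.69 ± 0.449 in female WT, 1.82 ± 0.335 in male KO and 0.821 ± 0.162 in male WT. Adgre1, which encodes F4/80, was higher in females by 1.35 ± 0.37 in KO (adjusted p = 0.0158) and 1.63 ± 0.37 in WT (adjusted p = 0.000888). Between female KO and female WT it was not called (0.25 ± 0.29, adjusted p = 0.519). The male libraries overlapped, at 0.296 to 0.728 CPM in KO and 0.121 to 0.534 in WT.

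Of the list, 7 genes were too low to test, among them Cd163, Ms4a7, Trem2, Folr2 and Ccr2, which mark subsets of macrophages and monocytes and had at most 6 reads in a library. Spi1, which encodes PU.1, was at 1.35 ± 0.556 CPM in female KO, 1.35 ± 0.401 in female WT, 1.0 ± 0.0808 in male KO and 0.621 ± 0.0405 in male WT, and it is named outside the rule because its motif was searched.

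**Figure D4:**
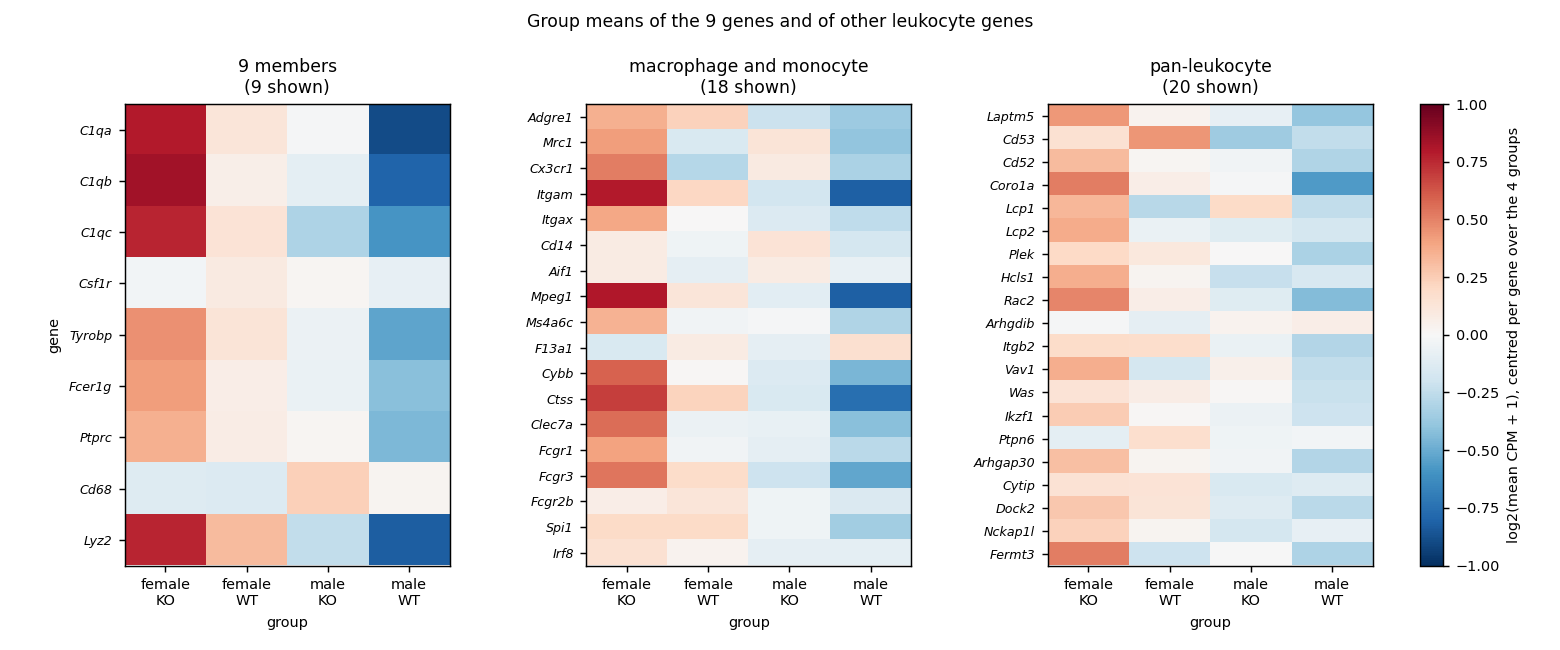
Group means of the 9 genes and of tested macrophage (18 shown) and pan-leukocyte (20 shown) genes (rows) in the 4 groups (columns), as log2(mean CPM + 1) centred per gene; red is above and blue below a gene's mean. Itgam, Mpeg1 and Ctss show the order of the C1q genes.

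Genes of leukocytes in general were also counted. Of 22 such genes 20 were tested, with 8 higher and 2 lower in female KO than in female WT, beside 20.7% and 18.6% of all genes. In male KO against male WT 2 were higher and 0 lower, beside 10.1% and 10.1%, so the higher count lies at the share of all genes. Vav1, a signalling adaptor of blood cells, rose by 1.49 ± 0.33 in female KO, and Fermt3, an integrin activator, by 1.18 ± 0.21 (adjusted p = 0.000398 and 3.12e-05). The tetraspanin gene Cd53 and the phosphatase gene Ptpn6 fell by 0.43 ± 0.17 and 0.28 ± 0.072 in female KO. Coro1a and Lcp1, which bind actin, rose by 0.83 ± 0.23 and 0.46 ± 0.11 in male KO (adjusted p = 0.00747 and 0.00194). Females were higher for 9 genes in KO and 11 in WT, beside 4.94% and 12.6% of all genes, with 0 lower in either. These counts leaned on single libraries: 5 were higher in female KO than in female WT without female KO 1 or female WT 4, and 1 in male KO than in male WT without male KO 1. Between the sexes, 5 were higher in KO without male KO 1 or female KO 2 and 4 without male KO 3, and 7 in WT without male WT 4.

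Among markers of other blood cells, Lck, a kinase gene of T and NK cells, was the exception to low levels. It was at 2.89 ± 0.102 CPM in female KO, 3.12 ± 0.408 in female WT, 2.56 ± 0.587 in male KO and 2.73 ± 0.446 in male WT, above Ptprc in each group, and was not called in any comparison. It is named outside the rule, after its value was seen. The other T, B and NK cell genes of the list of 14 were too low to test, and the list summed to between 2.08 and 3.93 CPM. Neutrophil genes summed to at most 0.277 CPM with 0 of 8 tested, and mast cell and erythroid genes to at most 0.360 CPM with 7 of 8 at 0 in every library.

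Partners of the members showed mixed calls. Il34 and Csf1, the ligands of CSF1R, were both higher in KO in both sexes. Il34 was at 43.3 ± 2.54 CPM in female KO, 28.6 ± 0.345 in female WT, 33.6 ± 1.36 in male KO and 28.0 ± 2.54 in male WT. It rose by 0.60 ± 0.054 in female KO (adjusted p = 5.25e-11) and by 0.25 ± 0.060 in male KO (adjusted p = 0.00178), and the female effect was the greater by 0.34 ± 0.081 (adjusted p = 0.00226). Csf1 rose by 0.12 ± 0.028 and 0.18 ± 0.030. Of 14 genes listed as partners in ITAM signalling 7 were tested, with 4 higher in female KO and 2 in male KO, beside 20.7% and 10.1% of all genes. Syk, the kinase that binds phosphorylated ITAMs, rose by 0.85 ± 0.11 in female KO and 0.36 ± 0.12 in male KO, and the female effect was the greater by 0.49 ± 0.16 (adjusted p = 0.0306).

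Of 16 other genes of the classical complement pathway 12 were tested. In female KO 2 were higher and 3 lower, near the shares of all genes (20.7% and 18.6%), and in male KO 0 were higher and 5 lower, beside 10.1% and 10.1%. The higher genes in females were the anaphylatoxin receptor genes C3ar1 (1.04 ± 0.29) and C5ar1 (0.99 ± 0.29), which leukocytes carry. C1ra, the protease that C1q activates, fell by 0.80 ± 0.17 in female KO and by 0.92 ± 0.18 in male KO (adjusted p = 0.000312 and 0.000159). In the lysosome list of 12, female KO had 2 higher and 4 lower, beside 20.7% and 18.6% of all genes. Male KO had 1 higher and 2 lower, beside 10.1% and 10.1%, so apart from the 4 lower in females these counts lie close to the shares of all genes. Lgals3, the galectin-3 gene, rose by 0.78 ± 0.060 in female KO and 0.42 ± 0.057 in male KO. Unlike most members, it was lower in females than in males (log2 difference -0.46 ± 0.058 in KO and -0.81 ± 0.059 in WT). Ctsd and Lamp2 were lower in female KO (-0.26 ± 0.023 and -0.23 ± 0.031). Ctsl and Ctsb were lower in male KO (-0.18 ± 0.028 and -0.15 ± 0.029). Among 4 tested class II genes, 1 was higher and 0 lower in female KO, close to the shares of all genes (20.7% and 18.6%). It was Cd74, the invariant chain, which rose by 1.23 ± 0.21 (adjusted p = 1.16e-05). In male KO 0 were higher and 0 lower, beside 10.1% and 10.1%. In female WT against male WT 0 were higher and 2 lower, beside 12.6% and 16.0%. These were Cd74 (log2 difference -0.93 ± 0.21, adjusted p = 0.000892) and H2-Ab1 (-0.63 ± 0.19, adjusted p = 0.0116).

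Genes of other kidney cells also differed between the pools. Endothelial genes (10 tested) summed to 39.0 to 50.6 CPM in female KO, 34.9 to 41.8 in female WT, 40.1 to 45.0 in male KO and 84.9 to 91.5 in male WT, and 9 were lower in male KO than in male WT, beside 10.1% of all genes. Fibroblast and pericyte genes summed to 4283 to 4746 CPM in female KO, 5266 to 5538 in female WT, 3150 to 3369 in male KO and 5012 to 5361 in male WT. Male WT, the pool lowest in 7 members, was thus the highest in endothelial genes. The part of these cells in the members' differences was not tested.

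Among the genes most like the mean profile of the 9 members over the 15 libraries, by root mean square difference of centred log2(CPM + 1), were Tifab (0.132), Cpm (0.142), Tgfbi (0.145), Smoc2 (0.149) and Ptpn7 (0.153). The members' mean profile itself lay 0.372 from a flat one. Ptpn7 encodes a phosphatase of blood cells, whereas Tgfbi and Smoc2 encode proteins of the extracellular matrix and Cpm a membrane carboxypeptidase. Smoc2 averaged 15.3 CPM in female KO, 10.1 in female WT, 8.96 in male KO and 5.87 in male WT, and rose by 0.59 ± 0.072 in female KO and 0.62 ± 0.091 in male KO (adjusted p = 2.89e-08 and 3.30e-06). Among all 13912 genes, Tyrobp ranked 1, Ptprc 3, Fcer1g 12, C1qc 69, C1qa 183, C1qb 186, Lyz2 273, Csf1r 1920 and Cd68 12223 in likeness to that profile, to which each member contributes. The pseudocount of 1 shrinks the differences of low genes, which bears on these ranks.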

How the data were processed

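RNA-seq counts from 15 libraries in 4 groups were analysed. The counts deposited by the authors are whole numbers per gene symbol. The submitters' processing notes name STAR 2.6.1, featureCounts with no version, edgeR 3.26.8, limma 3.40.6 and build mm10; which annotation and strand setting were used is not given in the sources used here. CPM values, also deposited, equalled counts over library totals to within 5.09e-11 and served only as a check. Low genes were dropped with filterByExpr (min.count 10, min.total.count 15) and libraries scaled by TMM. One quasi-likelihood model (edgeR 4.0.16, robust, R 4.3.3) was fitted over all libraries, with Benjamini-Hochberg adjustment over 13912 genes and calls below 0.05. The standard error is the log2 fold change over the square root of F. Depth was 17648416 to 30896637 counts. The binomial intervals of read shares and the floors cover counting error only. Intervals of log2 differences rest on the model's standard error, which covers the spread between libraries of a pool.

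The members and lists were chosen with earlier results of these data known. Named by rule were all members, from each list up to 2 called genes a direction and comparison with the largest fold, genes within 5 kb of a member, and the 6 genes of most similar pattern; a selection of these is given, and a few are not reported here. Alternatives were other scalings, DESeq2 1.42.0, limma-voom (limma 3.58.1), other filters, a replicate block, only the groups compared and leaving out each library. Scripts were tested on simulated data.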

Additional observations from a re-analysis of the deposited data

Results flagged for a closer look

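The Cd68 level of 3.39 CPM in female KO 2 stood apart from the other female KO libraries, which lay between 4.41 and 4.56 CPM. The gap was 0.868 of the group's range. With 4 libraries a group, chance flags about 1 in 20 groups, and all 9 genes were examined in each group of 4.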

How the results depend on the processing

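Of 756 refits over 45 combinations of gene and comparison, 693 kept direction and side of the threshold, 27 lost a call, 14 gained one and 22 changed sign, of which 0 were called either as reported or in the refit. Cd68 in female KO against female WT, at 0.0012, became -0.0031 with DESeq2 size factors, -0.037 with library size only, -0.0045 with no filter and with a stricter one, -0.0018 in DESeq2, -0.0032 in limma-voom and -0.0051 with only the groups compared, and ran from -0.064 to 0.087 without single libraries. Without single libraries, the difference between the sexes' KO effects ran from -0.42 to 0.091 for C1qb and from -0.37 to 0.0099 for Fcer1g, and female KO against male KO from -0.11 to 0.019 for Csf1r; the cause was not tested. The number of members called in female KO against female WT was 5, and leaving out single libraries gave 3 to 6, with 3 without female KO 1, female KO 3 or female WT 1. Leaving out single libraries gave 3 to 5 members in male KO against male WT, 0 to 0 for the difference between the sexes' KO effects, 5 to 7 in female KO against male KO and 7 to 8 in female WT against male WT. Over the other settings these counts were 4 to 6, 4 to 6, 0 to 0, 5 to 7 and 7 to 8, with female KO against female WT first. C1qa and C1qb kept every call in all alternatives run. Beside the leave-one-out values given with the results, Fcer1g in females was lost under library size only, DESeq2, limma-voom and a fit of only the groups compared (adjusted p = 0.0593, 0.0764, 0.0738 and 0.0538), and Lyz2 in females with no filter (adjusted p = 0.0601). In female KO against male KO, Tyrobp was lost in DESeq2 (adjusted p = 0.0517) and Fcer1g in DESeq2, limma-voom and only the groups compared (adjusted p = 0.0615, 0.0701 and 0.0635). Lyz2 in males passed in DESeq2, limma-voom and only the groups compared (adjusted p = 0.0124, 0.0228 and 0.00270). Tyrobp and Ptprc in females passed in limma-voom (adjusted p = 0.0340 and 0.0452), and Csf1r in female WT against male WT with library size only (adjusted p = 0.0375). Counts of the macrophage list, an alternative chosen after seeing the data, ran from 8 to 12 higher in female KO and 4 to 8 in male KO, and those of the pan-leukocyte list from 5 to 9 and 1 to 4. Depth limits Tyrobp and Fcer1g most, with as few as 4 and 12 reads in a library.

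With the replicate number as a block, 6 members were called in female KO against female WT, 6 in male KO against male WT, 0 for the difference, 7 in female KO against male KO and 7 in female WT against male WT. Tyrobp in females (adjusted p = 0.0406), Fcer1g in males (adjusted p = 0.0445) and Lyz2 in males (adjusted p = 0.000764) then passed. Same-numbered libraries had residual correlations of 0.00299 to 0.0655 in females and -0.0177 to 0.110 in males. Of 7 KO libraries 5 correlated best with their own number. With the block, 5909 of 13912 genes were called in female KO against female WT and 3092 in male KO against male WT. Without it the counts were 5469 and 2808. Whether equal numbers pair the libraries is not settled by these values.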
